A study of Mus musculus with 36 samples.

Results

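Heme is built in 8 enzymatic steps and opened by heme oxygenase, and 9 of the genes involved were followed in the developing mouse liver: Alas1, Alas2, Alad, Uros, Urod, Cpox, Ppox, Fech and Hmox1. They were taken by symbol from the 21889 symbols of the deposited expression table, and all 9 were found and passed the expression filter. The tissue was whole liver from male C57BL/6 mice (C57BL/6J in the study's methods), 36 in all, with 3 mice at each of 12 ages. The ages were GD17.5 (gestational day, labelled Day -2), birth before suckling (Day 0), the suckling Days 1, 3, 5, 10, 15 and 20, and the weaned Days 25, 30, 45 and 60. The mice of an age were drawn from several litters, and which mice share a litter is not given. No transgene, deletion or treatment is named for any group. The groups differed by age and by what comes with it, such as suckling up to Day 20 and chow after weaning. The time of collection also differed. Day 0 livers were taken right after birth, Day 1 livers a day after birth, and those from Day 3 on at a fixed morning hour. No clock hour is given for the ages before Day 3. Day 60, the adult age, was the control. Following the study, GD17.5 to Day 5 are called perinatal here, Days 10 to 20 pre-weaning, and Days 25 to 60 adolescence and adulthood.

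Heme synthesis starts in the mitochondrion, where ALA synthase joins glycine and succinyl-CoA to 5-aminolevulinate. Alas1 encodes the synthase of the liver and most other tissues, which is held down by heme itself, and Alas2, on the X chromosome, encodes the synthase of red-cell precursors. The next enzymes work in the cytosol: Alad joins aminolevulinate to porphobilinogen, Uros closes the ring and Urod trims its side chains. Cpox and Ppox then act as oxidases in the mitochondrion, and Fech inserts iron. Hmox1 encodes the inducible heme oxygenase, which opens the ring to biliverdin, iron and carbon monoxide and is prominent in macrophages that clear red cells. The fetal liver makes red cells, which in the mouse goes on for a time after birth, whereas the adult liver needs heme mainly for cytochromes P450 and other hepatic hemoproteins, so a whole liver at different ages can hold both kinds of heme synthesis.

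In the GENCODE M1 annotation of NCBI37/mm9, the build of the deposited values, Alas1 lies at chr9:106135786-106150457 on the minus strand and Alas2 at chrX:146981918-147005181 on the plus strand. Alad is at chr4:62170203-62180952 (minus), Uros at chr7:140877926-140901755 (minus) and Urod at chr4:116662570-116667018 (minus). Cpox is at chr16:58670321-58680504 (plus), Ppox at chr1:173206121-173211317 (minus) and Hmox1 at chr8:77617490-77624495 (plus). The library kit does not mark strand, and 4 members overlap a gene on the other strand: Alas1 with 4930500F10Rik, Alas2 with Apex2, Uros with Bccip and Ppox with B4galt3. Reads in these overlaps cannot be assigned to either partner. Apex2 was at 1.06 to 5.33 FPKM over the mice, against 30.2 to 1103 FPKM for Alas2. The low members were closer to their partners: at Days 25 to 60 Bccip had a median of 13.4 FPKM and a lowest value of 10.6 FPKM, above Uros at 2.72 to 5.16 FPKM, and B4galt3 at 1.63 to 2.87 FPKM, near Ppox at 3.11 to 4.70 FPKM.

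The promoters of both ALA synthases are shown with those of the members that carry the letters bound by GATA factors, since GATA1 drives red-cell genes. Each line gives the 250 bases before an annotated start of transcription, 5′ to 3′ in the direction of the gene, from RefSeq on GRCm38.p6. Capitals mark CACCC and the letters GATA preceded by A or T and followed by A or G (called GATA letters here), each on either strand. The windows are chrX:150547167-150547416 (plus) for Alas2, chr16:58669958-58670207 (plus) for Cpox, chr7:133702501-133702750 (minus) for start site 2 of Uros and chr9:106247955-106248204 (minus) for start site 1 of Alas1.
Alas2: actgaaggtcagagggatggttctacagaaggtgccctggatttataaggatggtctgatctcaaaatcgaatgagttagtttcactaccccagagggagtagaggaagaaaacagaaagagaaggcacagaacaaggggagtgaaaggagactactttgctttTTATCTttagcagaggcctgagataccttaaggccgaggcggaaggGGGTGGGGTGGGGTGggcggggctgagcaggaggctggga
Cpox: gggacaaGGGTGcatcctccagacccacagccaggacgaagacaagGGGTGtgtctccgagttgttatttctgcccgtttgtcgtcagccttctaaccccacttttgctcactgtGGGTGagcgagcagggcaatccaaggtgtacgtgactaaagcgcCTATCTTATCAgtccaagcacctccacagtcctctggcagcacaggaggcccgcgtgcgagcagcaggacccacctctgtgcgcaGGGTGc
Uros: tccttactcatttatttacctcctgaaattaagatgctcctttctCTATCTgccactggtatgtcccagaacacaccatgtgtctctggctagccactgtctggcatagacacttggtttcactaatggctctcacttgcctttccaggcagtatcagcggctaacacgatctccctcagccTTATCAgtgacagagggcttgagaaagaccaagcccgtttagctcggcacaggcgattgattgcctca
Alas1: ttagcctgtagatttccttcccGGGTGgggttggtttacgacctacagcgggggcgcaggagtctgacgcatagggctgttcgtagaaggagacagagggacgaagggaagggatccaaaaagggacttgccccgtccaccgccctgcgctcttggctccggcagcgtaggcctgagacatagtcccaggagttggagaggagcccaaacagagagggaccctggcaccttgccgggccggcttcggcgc
Alas2 held 1 GATA match that begins 86 bases before the start and 3 abutting CACCC matches at 40, 35 and 30 bases. Cpox held 2 overlapping GATA matches at 91 and 86 bases, and the Uros window 2 matches at 205 and 68 bases. Neither Alas1 window held GATA letters. Over the 7 members with an entry that were read, 3 of 10 windows held a GATA match and 5 of 10 held CACCC, compared with 26.5% and 52% of 32851 promoter windows of this length. These shares lie near the background, and a match is a run of letters, not a shown binding site. Hmox1 is named only.

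The deposited values are FPKM, fragments scaled to transcript length and to the mapped fragments of the library, without read counts. Summed FPKM was between 353712 and 450597 per mouse, and the spacing of low values gave relative library depths of 0.892 to 1.11 (62.5% of low values lay within 0.1 of a whole fragment). Pearson's r across genes between mice of one age was at least 0.952. Some libraries stood apart: Day 0 replicate 1 and Day 10 replicate 1 held skeletal muscle transcripts (Acta1 at 636 and 40.8 FPKM), and 12 pancreas markers summed to at most 15.2 FPKM at GD17.5 but reached 7095 FPKM in a mouse of Day 0, 7693 on Day 15, 10809.6 on Day 20, 6550 on Day 45 and 29203 FPKM in Day 60 replicate 1. The 12 hepatocyte markers summed to means of 13283 FPKM at GD17.5 and 60488 to 130396 FPKM at the later ages. In perinatal against later livers, 2 of 12 hepatocyte markers were higher and 7 lower, 4 of 12 muscle and 5 of 12 pancreas markers were higher, and 7 of 10 clock genes were higher and 1 lower. In this comparison 70.2% of all genes tested were called higher and 15.5% lower, so the clock count lay near the background. Below, values are FPKM means ± SD of 3 mice, and differences are log2 fold changes of FPKM + 1 from limma, fitted over 11149 genes. In bulk tissue, fewer cells of a type and less RNA per cell cannot be told apart.

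Of the 9 genes, 8 were higher in perinatal livers than at Days 25 to 60, and Alas1 was lower in the average over ages. The background was large: 70.2% of all genes tested were called higher in this comparison and 15.5% lower, and the median over all genes was 0.54 on the log2 scale. With libraries scaled to one upper quartile, this median was 0.14 and the calls over all genes were 5222 higher and 3566 lower in place of 7824 and 1728; the 9 members kept their directions and calls. On the log2 scale the members differed by 3.12 for Hmox1, 2.82 for Alas2, 2.80 for Ppox, 2.56 for Fech, 1.84 for Cpox, 1.82 for Urod, 1.62 for Uros and 0.94 for Alad. Their SE were 0.069 to 0.19 and all 8 had adjusted p of at most 6.8e-10, and Alas1 had a log2 fold change of -0.51 (SE 0.17, adjusted p = 0.0055). With upper quartile scaling the difference was 0.30 for Alad (adjusted p = 0.011), 1.18 for Urod, 1.07 for Uros, 1.24 for Cpox and -1.11 for Alas1. In 7 of the 9 genes, every perinatal mouse lay above every mouse of Days 25 to 60; the exceptions were Alad, with 12 of 15 perinatal mice above the highest later mouse, and Alas1, with 0 of 15. Of all genes tested, 33% showed every perinatal mouse above every later mouse. The median of the members was 1.84, beside 0.54 for all genes tested.

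**Figure D1:**
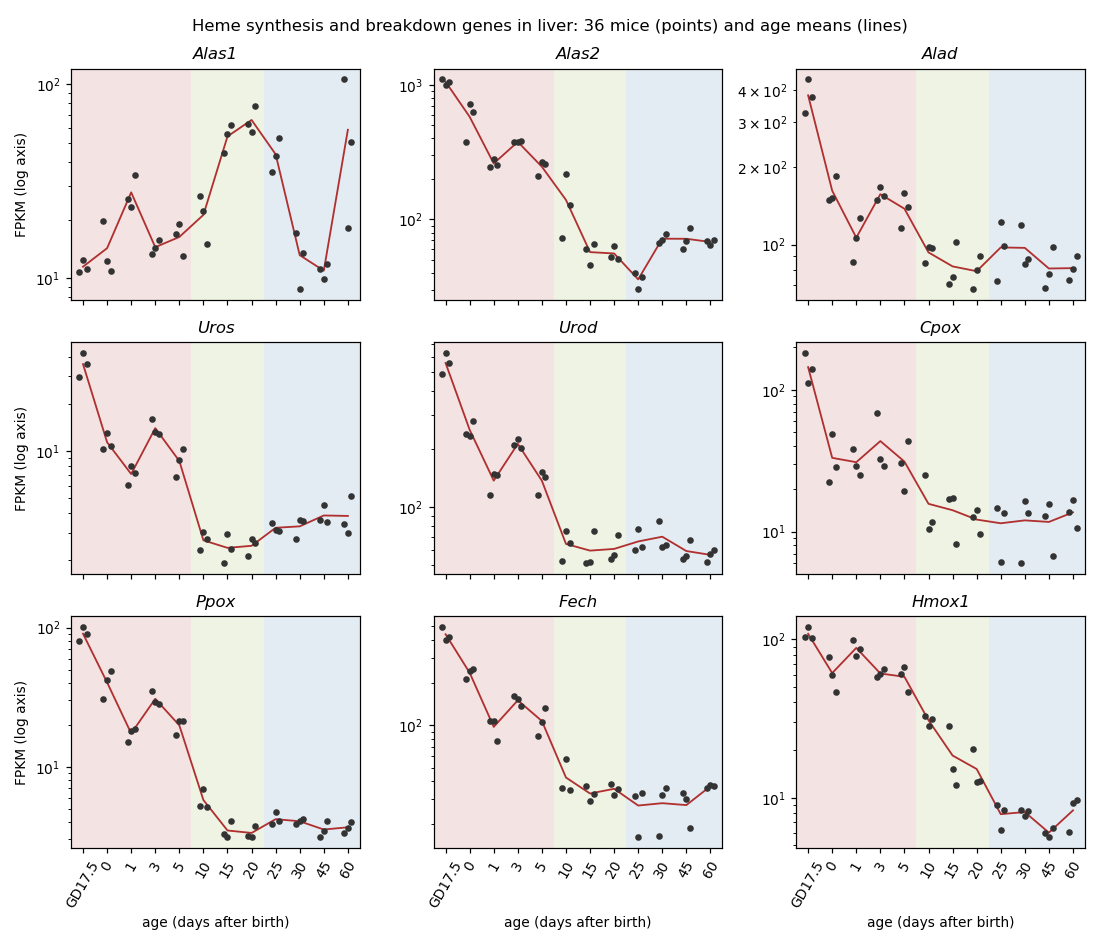
FPKM on a log axis against age for each of the 9 genes, with 1 point per mouse and a line through the age means; pink, green and blue shading mark perinatal, pre-weaning and adolescent to adult ages. Synthesis enzymes other than Alas1 fall from GD17.5 to a floor reached by about Day 15, Hmox1 falls until Day 25, and Alas1 peaks at Days 15 to 25 and again at Day 60, where its mice spread from 18.2 to 107 FPKM.

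Alas2, the red-cell synthase, was the most abundant of the 9 transcripts at GD17.5. The GD17.5 mice had 1103, 1004 and 1052 FPKM and the Day 0 mice 379, 726 and 633 FPKM. Day 1 mice had 245, 283 and 254 FPKM, and Day 3 mice 377, 373 and 381 FPKM. All 3 mice of GD17.5 thus lay above all mice of Day 0, and all 3 of Day 3 above all of Day 1. At Day 10 the mice were widely spread, at 73.4, 217 and 129 FPKM, and the lowest of them was the library with muscle transcripts. From Day 15 on, every mouse was between 30.2 and 86.3 FPKM. The lowest age was Day 25 (40.3, 30.2 and 37.1 FPKM), whose mice did not overlap those of Day 20 (52.8, 63.6 and 51.2 FPKM) or Day 30 (66.8, 70.5 and 78.5 FPKM).
Against Day 60 (68.1 ± 3.06 FPKM), Alas2 was higher at each age up to Day 10, by 3.93 (SE 0.24) on the log2 scale at GD17.5 and 0.89 at Day 10. It was lower at Day 25 (-0.91, limma adjusted p = 0.015) and did not differ by the test at Days 15, 20, 30 and 45. The ratio of the means at GD17.5 and Day 60 was 15.5, and with the 12 ages ordered by mean, the mice of 8 of 11 neighbouring pairs overlapped. That Day 25 call was lost without Day 25 replicate 2 (-0.80, adjusted p = 0.091) or without Day 60 replicate 1 (-0.90, adjusted p = 0.053).

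Alas1, the hepatic synthase, followed another course. At GD17.5 its mice were at 10.9, 12.4 and 11.2 FPKM, the lowest level among the 9 genes at that age. At Day 1 they were at 25.8, 23.2 and 34.3 FPKM, above all mice of Day 0 (19.7, 12.3 and 10.9 FPKM) and of Day 3 (13.3, 14.3 and 15.8 FPKM). Levels were high at Day 15 (44.5, 55.4 and 62.1 FPKM), Day 20 (62.9, 56.9 and 77.1 FPKM) and Day 25 (35.4, 42.8 and 52.8 FPKM). They were low again at Day 30 (17.2, 8.78 and 13.5 FPKM) and Day 45 (11.1, 9.92 and 11.9 FPKM), without overlap with the 3 ages before. At Day 60 the 3 mice were at 107, 18.2 and 50.5 FPKM, a range that took in all values of Days 15 to 25 and lay above those of Days 30 and 45. Replicate 1, the highest, was also the library with the most pancreas transcripts; the part of these in its Alas1 level was not tested.
In the order of the means, Day 20 was followed by Day 60, Day 15 and Day 25, whose neighbours overlapped, and only the gap between Day 25 and Day 1 separated the mice of neighbouring ages. Alas1 was lower than at Day 60 at GD17.5 (-1.92, SE 0.35), Day 0, Day 3, Day 5, Day 10, Day 30 (-1.79) and Day 45 (-1.99, limma adjusted p = 0.0065). Without Day 60 replicate 1 the difference at Day 30 was -1.19, still called, while those at Day 45 (-1.40, adjusted p = 0.061) and Day 10 (-0.53, adjusted p = 0.18) lost the call, and that at Day 10 was also lost without Day 10 replicate 3 (-0.91, adjusted p = 0.059). In the pre-weaning ages as a group, Alas1 was higher than at Days 25 to 60 by 0.82 (SE 0.19, adjusted p = 0.0005). Here 44.9% of all genes were called higher and 12.4% lower (5003 and 1387 genes, or 4164 and 2075 with upper quartile scaling).

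**Figure D2:**
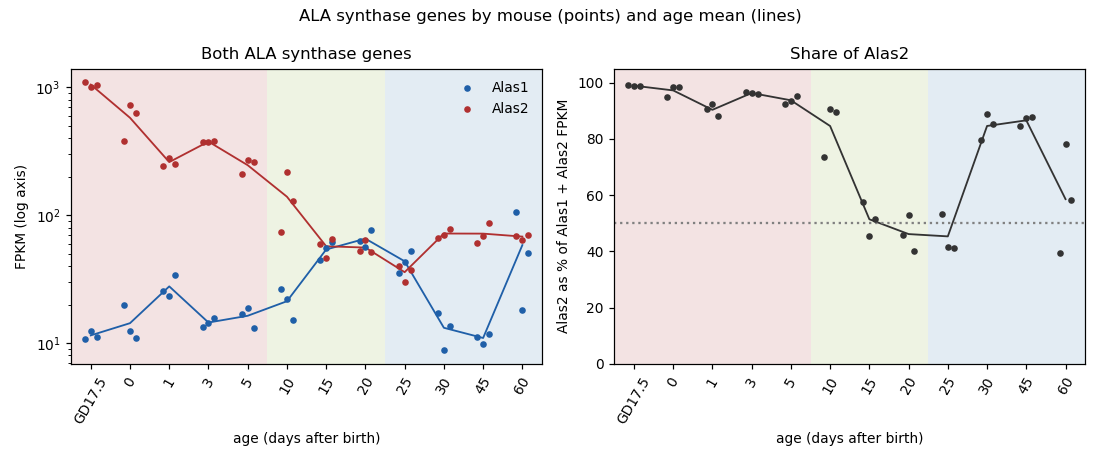
Left, FPKM of Alas1 (blue) and Alas2 (red) on a log axis by age, with 1 point per mouse and lines through age means; right, Alas2 as a percentage of the FPKM of both genes, with a dotted line at equal levels. The mean share is 98.9% before birth, 46.1% on Day 20 and 86.6% on Day 45, and on Day 60 the mice span 39.4% to 78.0%.

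Set against each other, the synthases crossed. FPKM is a level per length of transcript, so both genes can be compared within a mouse. At GD17.5 Alas2 made up 98.9% ± 0.12 of the summed Alas1 and Alas2 FPKM, which became 90.3% ± 2.16 on Day 1 and 84.6% ± 9.67 on Day 10. The share was 51.4% ± 5.97 at Day 15, 46.1% ± 6.45 at Day 20 and 45.3% ± 6.90 at Day 25, with the 9 mice of these ages on both sides of equal levels. At Days 30 and 45 Alas2 again held 79.5% to 88.9% of the sum in the 6 mice. At Day 60 the 3 shares were 39.4%, 78.0% and 58.2%. The log2 ratio of Alas2 to Alas1 averaged 4.66 over the 5 perinatal age means and 1.32 over the 4 age means of Days 25 to 60. The difference of 3.34 gave p = 0.016 in a two-sided exact permutation test over age means, the smallest p that the 126 splits allow, and the perinatal means (3.20 to 6.40) did not overlap the later ones (-0.27 to 2.59). The ages are ordered in time, and any steady trend with age gives this p, so it cannot set 2 groups apart from a trend.

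The cytosolic enzymes shared by both kinds of heme synthesis fell to different floors. Alad, at 326, 440 and 376 FPKM at GD17.5, was at 72.8, 80.2 and 90.1 FPKM at Day 60, a ratio of means of 4.70, the smallest among the 8 genes that were higher in perinatal livers. At Days 10 to 60 its age means stayed between 78.9 and 97.6 FPKM, and at Day 1 (107 ± 20.8 FPKM) it did not differ from Day 60 by the test (0.38, limma adjusted p = 0.082). For Urod the GD17.5 mice had 491, 629 and 556 FPKM and the Day 60 mice 52.2, 57.4 and 60.1 FPKM, a ratio of 9.88. Its age means from Day 10 on were 56.6 to 70.3 FPKM, none of them different from Day 60. Uros was the least abundant enzyme of the 3. GD17.5 mice had 29.4, 42.2 and 35.8 FPKM, and the 9 mice of Days 10 to 20 lay between 1.91 and 3.01 FPKM. Uros was lower in pre-weaning livers than at Days 25 to 60, by -0.37 on the log2 scale (SE 0.089, limma adjusted p = 0.00084); Alad (-0.06) and Urod (-0.04) had adjusted p of 0.62 and 0.73. The difference between these genes was not tested.

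Of the mitochondrial enzymes at the end of the pathway, Ppox had the largest ratio of GD17.5 to Day 60 among the 9 genes. Ppox, protoporphyrinogen oxidase, had 80.5, 101 and 89.7 FPKM in the GD17.5 mice and 3.36, 3.62 and 4.03 FPKM in the Day 60 mice, a ratio of 24.7. It was still higher than at Day 60 at Day 10 (5.76 ± 0.99 FPKM; 0.53, limma adjusted p = 0.0037). Fech, which lies on chromosome 18 and completes heme, had 495, 401 and 423 FPKM in the GD17.5 mice and 36.1, 37.5 and 37.2 FPKM in the Day 60 mice, a ratio of 11.9. Cpox, the coproporphyrinogen oxidase, was at 182, 112 and 139 FPKM at GD17.5 and had lost most of this level by Day 0 (22.5, 48.5 and 28.4 FPKM). Its later age means were 11.5 to 15.7 FPKM from Day 10 on. In the pre-weaning comparison Fech was called higher (0.33, adjusted p = 0.039), Alas2 likewise (0.31, adjusted p = 0.043), and Cpox (0.19) and Ppox (0.06) were not. The Alas2 and Fech calls were each lost with no filter on low values, upper quartile scaling (0.17 and 0.20) or TPM scaling, and with 1 mouse left out the Alas2 call was lost in 13 of 36 fits and the Fech call in 9, both in 7 of them.

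Hmox1, the heme-degrading member, stayed above its Day 60 level up to Day 20. The GD17.5 mice had 103, 120 and 102 FPKM, the Day 1 mice 99.3, 78.8 and 87.3 FPKM, and the Day 5 mice 60.6, 67.4 and 46.3 FPKM. All of these exceeded the 32.7, 28.5 and 31.5 FPKM of Day 10, and the mice of Day 15 (28.2, 15.3 and 12.0 FPKM) and Day 20 (20.2, 12.6 and 12.8 FPKM) were lower still. All 12 mice of Days 25 to 60 lay between 5.63 and 9.62 FPKM, below all 24 younger mice, and in the order of the means 6 of 11 neighbouring ages overlapped. Hmox1 was the only member higher than at Day 60 at each of the 8 ages up to Day 20, from 3.58 (SE 0.22) at GD17.5 to 0.79 at Day 20 (limma adjusted p = 0.013), and the pre-weaning difference was 1.31 (adjusted p = 2.8e-10). Of 16 macrophage markers tested, 14 were higher and 2 lower in perinatal livers (70.2% and 15.5% of all genes). In pre-weaning livers 14 were higher and 0 lower (44.9% and 12.4% of all genes). The list's summed level was 560 FPKM perinatally (376 to 705), 337 FPKM before weaning (180 to 476) and 219 FPKM later (154 to 310). From GD17.5 to Day 0, where Hmox1 fell, 2 of these markers rose and 3 fell (41.4% of all genes fell). From Day 0 to Day 1, 11 rose (23.7% of all genes rose), and Hmox1 changed by 0.55 without passing the test (limma adjusted p = 0.061). From Day 20 to Day 25 limma called 0 of these markers. The part of macrophages in the Hmox1 values was not tested. Hmox2, the constitutive heme oxygenase, stayed within means of 20.7 to 33.3 FPKM over the 12 ages, so that Hmox1 was 109 ± 9.91 FPKM beside 21.8 ± 2.46 FPKM for Hmox2 at GD17.5, and 8.32 ± 1.98 beside 21.1 ± 0.92 FPKM at Day 60.

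**Figure D3:**
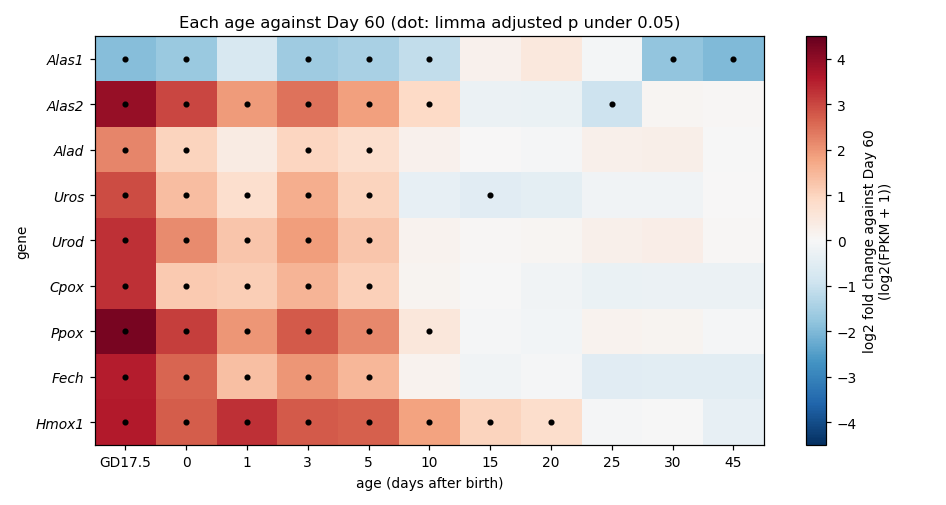
Log2 fold change of each gene (rows) at each age (columns) against Day 60, red for higher and blue for lower, with a dot where the limma adjusted p was under 0.05. Red fills the ages up to Day 5 for 8 genes, red cells with a dot reach Day 20 only for Hmox1, and Alas1 is blue with a dot at 7 of 11 ages.

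Counted by age, the comparisons with Day 60, which all share the 3 Day 60 mice, gave 53 calls in 99 tests, 44 higher and 9 lower. At GD17.5, Day 0, Day 3 and Day 5, 8 members were higher and Alas1 lower, with 56.4%, 43.6%, 55.7% and 56.9% of all genes called higher and 18.6%, 20.3%, 10.3% and 8.5% called lower. At Day 1, 7 were higher (background 53.4%) and 0 lower. At Day 10, Alas2, Ppox and Hmox1 were higher (35.3%) and Alas1 lower (10.6%). At Day 15 Hmox1 was higher (18.4%) and Uros lower (8.95%), and at Day 20 Hmox1 alone was called (8.93% of genes higher). At Day 25 Alas2 was lower (3.24%), and at Days 30 and 45 Alas1 was lower (1.79% and 0.17%).

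Between neighbouring ages, 37 of 99 tests were called, 8 higher and 29 lower. From GD17.5 to Day 0, 8 members fell (41.4% of all genes fell), by 0.84 to 2.14 on the log2 scale; Alas1 changed by 0.25 (limma adjusted p = 0.56). From Day 0 to Day 1, 6 fell (7.88%), and Alas1 rose by 0.93 (adjusted p = 0.042; 23.7% of genes rose). The Alad call of this step was lost without Day 0 replicate 3 or Day 1 replicate 1. The Alas1 call was lost without any one of 5 of the 6 mice and with upper quartile scaling (0.78, adjusted p = 0.12). From Day 1 to Day 3, 4 members rose (8.22%): Uros by 0.88, Ppox by 0.79, Urod by 0.64 and Alad by 0.57. The Alad call (adjusted p = 0.048) was lost in 19 of 36 fits that left out 1 mouse, and under 4 processing alternatives, and the Urod call without Day 1 replicate 1 or Day 3 replicate 2 and with upper quartile scaling (0.50, adjusted p = 0.12). Among 33 red-cell markers, 18 rose and 2 fell in the same step. From Day 3 to Day 5, Uros, Urod and Ppox fell (2.12%), with 18 red-cell markers.
From Day 5 to Day 10, 7 members fell (34.4%), by up to 1.63 for Ppox. From Day 10 to Day 15, Alas2 (-1.15), Hmox1 (-0.80) and Ppox (-0.59) fell (10.5%) and Alas1 rose by 1.33 (adjusted p = 0.010; 1.52% of genes rose), a call lost without Day 10 replicate 3 or Day 15 replicate 3. From Day 15 to Day 20, 0 members were called by limma (background 1.99%), also at an unadjusted p under 0.05. Across weaning, from Day 20 to Day 25, Hmox1 fell by 0.85 (adjusted p = 0.015; 3.26%) and was the only member called; this call was lost without Day 20 replicate 1 (-0.64, adjusted p = 0.12) or Day 25 replicate 2 (-0.71, adjusted p = 0.11).
After weaning, Alas1 and Alas2 moved in opposite directions from Day 25 to Day 30: Alas1 fell by 1.68 (SE 0.35, adjusted p = 0.0046) and Alas2 rose by 0.99 (SE 0.24, adjusted p = 0.023). In this step 0.807% of all genes fell and 0.834% rose. From Day 30 to Day 45, 0 members were called (1.03%), also at an unadjusted p under 0.05. From Day 45 to Day 60, Alas1 rose by 1.99 (adjusted p = 0.0065), 1 of 19 genes among 11149 that did (0.17%). Without Day 60 replicate 1 this rise was 1.40 (adjusted p = 0.061). The step calls from Day 25 to Day 30 also depended on single mice: the Alas1 call was lost without Day 25 replicate 3 or Day 30 replicate 2, and the Alas2 call without any one of 4 of the 6 mice.
Alas1 is known to be under the control of the circadian clock. The 10 clock genes tested gave 0 calls by limma from Day 25 to Day 30 and from Day 45 to Day 60, where few of all genes passed. Uncalled changes from Day 45 to Day 60 included Nr1d1 (1.14), Nr1d2 (1.03) and Dbp (0.87), with unadjusted limma p of 0.00046, 0.0012 and 0.0072. Arntl (-0.17) and Cry1 (-0.059) went the other way. From Day 25 to Day 30, Nr1d1 changed by 1.06 (limma adjusted p = 0.057) and Per1 by -0.48 (0.55). From Day 20 to Day 25, 7 of the 10 fell (3.26% of all genes fell). The summed FPKM of the 14 listed clock genes was 50.5 on Day 20, 16.2 on Day 25, 20.4 on Day 30, 28.5 on Day 45 and 49.3 on Day 60. These sums are not 1 course shared by the genes. Nr1d1 alone averaged 28.3 FPKM on Day 60, its highest age. Dbp was highest on Day 20 (9.46 FPKM) and at most 2.52 FPKM in the mice of Days 25 to 60. The part of the clock in the Alas1 values was not tested.

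Red-cell markers were followed beside the members: 32 of 33 fell from GD17.5 to Day 0, 28 from Day 5 to Day 10 and 25 from Day 10 to Day 15, steps in which 8, 7 and 3 members fell. In these steps 41.4%, 34.4% and 10.5% of all genes fell. All 33 red-cell markers tested were higher in perinatal livers than at Days 25 to 60 (70.2% of all genes), with a median log2 fold change of 4.49. Slc4a1, the band 3 anion exchanger of the red-cell membrane, averaged 1593 ± 348 FPKM before birth, 37.6 ± 13.5 by Day 10 and 0.21 ± 0.069 by Day 60. In the 12 mice of Days 25 to 60, 22 of the 33 markers were under 1 FPKM in every mouse, among them Gata1, Epb4.2 and Rhag, and Hba-x was at 0 in all 12. These 22 passed the expression filter only through younger ages, so their direction in the perinatal comparison was largely fixed in advance. Without the globins, 26 markers summed to 4743 FPKM before birth and, after weaning, to 25.4 (Day 25), 16.6 (Day 45) and 18.7 FPKM (Day 60), while Alas2 averaged 35.9, 71.8 and 68.1 FPKM at these later 3 ages. Where Alas2 rose, from Day 25 to Day 30, limma called 1 of the 33 markers higher and 0 lower (0.834% and 0.807% of all genes). The globins Hba-a1 (0.39), Hba-a2 (0.58), Hbb-b1 (0.42) and Hbb-b2 (0.33) also went up, uncalled. Hbb-bh1 (-0.024) and Hbb-y (-0.0093) went down. The median over the 33 markers was -0.015. Without the globins, the sum was 16.6 to 33.9 FPKM in the Day 25 mice and 15.7 to 24.3 FPKM in the Day 30 mice. The part of red cells in this Alas2 rise was not tested. Set against alpha globin, Alas2 had 8.26 ± 1.87 FPKM per 1000 FPKM of Hba-a1 in GD17.5 livers and 10.1 ± 0.53 on Day 5. This ratio was 16.6 ± 0.64 on Day 20, 28.1 ± 12.9 on Day 30, 82.1 ± 20.5 on Day 45 and 129 ± 1.77 on Day 60. Alas2 therefore did not keep a fixed ratio to globin in the later ages, where mean Hba-a1 was 2136 ± 87.4 FPKM (Day 25) and then 527 ± 19.7 FPKM (Day 60). The near-identical alpha globin genes can share reads, so Hba-a1 alone is uncertain.

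**Figure D4:**
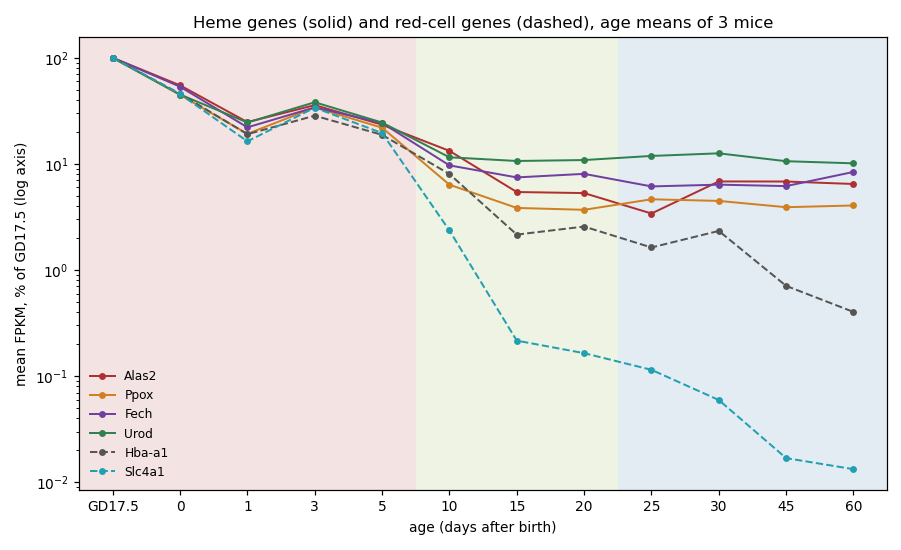
Age means as a percentage of GD17.5 on a log axis, for Alas2, Ppox, Fech and Urod (solid) and the red-cell genes Hba-a1 and Slc4a1 (dashed). The 6 lines run close together to Day 5. The heme genes fall further to Day 10 and level off from about Day 15. The red-cell genes drop below them, to 0.21 FPKM for Slc4a1 and 527 FPKM for Hba-a1 at Day 60.

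Other genes of heme and iron handling did not move as 1 group. Of 34 tested, 17 were higher and 12 lower in perinatal livers (70.2% and 15.5% of all genes), with a median log2 fold change of 0.27, beside 0.54 for all genes. Slc25a37, the mitoferrin that brings iron to mitochondria of red-cell precursors, was higher by 4.55 on the log2 scale. Abcb10 was higher by 2.34, Slc25a38, which carries glycine into mitochondria, by 1.41, and Eif2ak1, the heme-regulated kinase that slows globin translation, by 1.86. Downstream of Hmox1, the biliverdin reductases Blvrb and Blvra were higher by 1.80 and 1.11. Among the 12 that were lower was Hpx, hemopexin, which binds free heme (-2.53), with age means from 74.8 FPKM at GD17.5 to 2194 FPKM on Day 5 and at least 3774 FPKM from Day 10 on. Hp, haptoglobin (-0.78), and Ugt1a1, which conjugates bilirubin (-1.17), were also called lower, but were very low only at GD17.5, at means of 116 and 0.042 FPKM. Hp was highest of all ages on Day 5 (3276 FPKM), with a median of 2519 FPKM over the 15 perinatal mice and 2136 FPKM over the 12 later mice. The medians of Ugt1a1 were 90.1 and 103 FPKM.
Of 22 listed genes, mainly hepatic enzymes that carry or need heme, 17 were lower and 2 higher in perinatal livers (median -1.36), beside 15.5% and 70.2% of all genes. The list also held Sqle, squalene epoxidase, and the respiratory-chain genes Cycs, Cyc1, Sdhc and Sdhd, so its counts are not for hepatic heme enzymes alone. The perinatal difference was -6.37 for Tdo2, -3.07 for Cyp2e1 and 4.82 for Cyp3a16, an early-life cytochrome P450. Summed over the list, the level was 719 ± 47.3 FPKM before birth, 4005 ± 290 FPKM on Day 1, 7748 ± 579 FPKM on Day 20 and 8780 ± 1620 FPKM on Day 60. From Day 25 to Day 30, when Alas1 fell, 1 of these listed genes rose and 2 fell (0.834% and 0.807% of all genes). From Day 45 to Day 60, when Alas1 rose, limma called 0 of them (0.17% of all genes rose).

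Within an age, the members did not all vary together, and part of this spread followed a trend of the libraries. For each mouse, the deviation of all genes from their age mean was correlated with the GC content of their transcripts, over 10887 genes; the resulting library trend ranged from r = -0.59 to 0.53. Over the 36 mice, the deviation of Cpox followed this trend with r = -0.82, that of Alad with 0.76, that of Urod with 0.78 and that of Ppox with 0.51, while Alas1 (0.23), Alas2 (0.32), Uros (0.10) and Hmox1 (-0.22) followed it less. Alad and Urod deviated together (r = 0.90) and Cpox against both (r = -0.72 and -0.75). Ppox deviated with Urod (0.69), Alad (0.65) and Alas2 (0.55), and Cpox with Fech (0.54), while Alad and Fech went apart (-0.51). These are descriptions over mice that share the same age means. The part of the trend in the members' spread was not tested. The GC content of the transcripts, 58.5% for Alad, 53.9% for Urod and 48.1% for Cpox, does not order the members by r: Fech was lowest, at 47.1% (r = -0.26), and Hmox1 at 53.4% and Alas2 at 53.3% lay close to Urod. A library trend with transcript length had a like range, from r = -0.60 to 0.63. The lowest Cpox values after weaning were 6.11 FPKM in Day 25 replicate 2, 5.98 in Day 30 replicate 1 and 6.73 in Day 45 replicate 3, and the other 9 mice of Days 25 to 60 were at 10.6 to 16.8 FPKM. The same 3 mice had the lowest Fech values of Days 25 to 60 (16.1, 16.4 and 18.6 FPKM) and Alad values of 122, 120 and 97.7 FPKM. Their length trends were r = -0.58, -0.60 and -0.43, and their GC trends 0.39, 0.21 and 0.33.

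**Figure D5:**
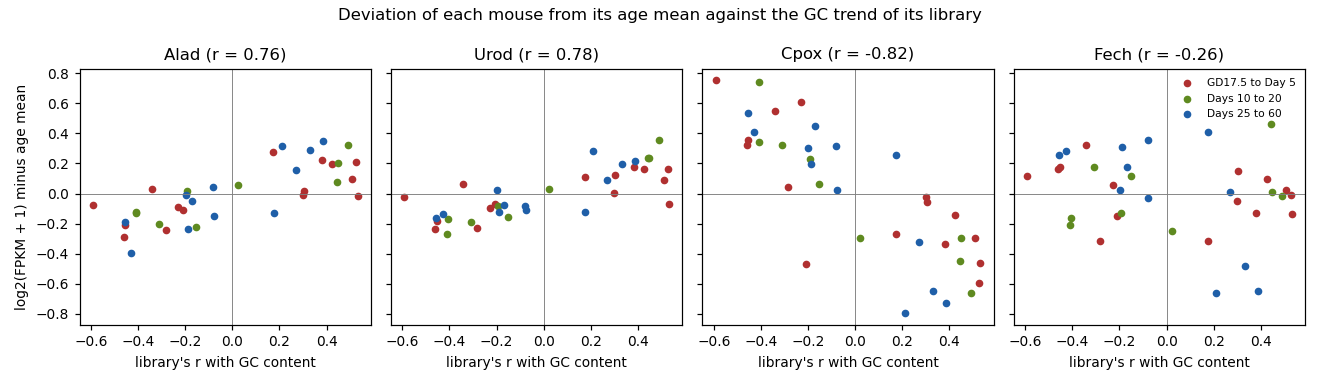
Deviation of each mouse from its age mean (log2(FPKM + 1)) for Alad, Urod, Cpox and Fech, against the correlation of its whole library's deviations with transcript GC content; colours mark the 3 age groups. Alad and Urod run upward (r = 0.76 and 0.78) and Cpox downward (r = -0.82), and for Fech (r = -0.26) 3 blue points lie apart at the bottom.

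The genes most like Alas1, Alas2 and Hmox1 over the 36 mice were taken by Pearson's r of log2(FPKM + 1) among the 6853 genes whose mean reached 5 FPKM at some age. For Alas2 these were 1700037H04Rik (0.98), Unc13d, Tspo2, Xrcc1 and F830116E18Rik (0.97). Among the members, Ppox ranked 17 and Fech 89 in likeness to Alas2, and Urod 262. For Hmox1 they were Bex1, Cdc42se1, Rgs19, Ngfrap1 and Plagl1 (0.98). Alas1 had no gene as close: those nearest included Sult2a3 (0.73), Sult2a5 (0.70), Sult2a4 and Enpp1 (0.69), and the sulfotransferases can share reads. The other 8 members all correlated negatively with Alas1, from -0.33 for Hmox1 to -0.58 for Alas2. These values describe points that share ages and libraries and are not evidence of shared control.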

How the data were processed

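RNA was measured in livers of 36 male mice, 3 per age. The authors isolated total RNA, prepared libraries with the TruSeq RNA kit, mapped reads to NCBI37/mm9 with TopHat 1.2.0 and estimated abundance with Cufflinks 1.0.3 against an Ensembl annotation. The deposited values are FPKM per gene symbol, not counts; no scaling between libraries is named, so a large change in a few abundant transcripts shifts the rest. The study states an average number of reads per sample but not the depth of each library, and the number of mice limits the precision. Mice of one age came from several litters, which are not identified, so limma p-values measure the spread between these mice. The permutation p rests on age means instead.

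Values were transformed to log2(FPKM + 1). Genes whose mean reached 1 FPKM at some age (11149) entered one fit in limma 3.58.1 (R 4.3.3) that gave each age its own mean across the 36 mice and let variances follow mean expression. P-values were adjusted by Benjamini-Hochberg within each comparison over all genes. The fit was tested on simulated data. Fold changes on this scale understate changes of low genes. The log2 ratio of Alas2 to Alas1 was compared by exact permutation of the age means, two-sided. Python 3.11.15, pandas 2.3.3, scipy 1.17.1 and matplotlib 3.10.9 were used.

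The members and gene lists were chosen with earlier results of these data known. Genes named outside the members are those of the heme list called in the perinatal comparison, the 5 most like Alas1, Alas2 and Hmox1, and markers beside the results they touch; examples from the list of heme-requiring enzymes were chosen after their values were seen. Some genes of these lists are not reported here. Alternatives were a pseudocount of 0.1, no filter or one at 5 FPKM, upper quartile and TPM scaling, no mean-variance trend, the replicate number taken as a block, and each mouse left out. Leaving out the 2 libraries highest in muscle and the 1 highest in pancreas transcripts was chosen after seeing the data. Positions are from GENCODE M1, promoters from RefSeq, and GC content was found for 97.7% of tested genes.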

Additional observations from a re-analysis of the deposited data

How the results depend on the processing

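The perinatal comparison called 9 of 9 members under every alternative run. The calls against Day 60 (53) ranged from 49 to 56 and those of the steps (37) from 28, with upper quartile scaling, to 41, with the 2 libraries highest in muscle and the 1 highest in pancreas transcripts left out (chosen after seeing the data; other libraries that hold pancreas transcripts stayed in). With one mouse left out, these counts ranged from 49 to 56 and from 33 to 38, the ratio difference from 3.19 to 3.49, and the Alas2 share over Days 25 to 60 (68.8%) from 66.9% to 71.4%. The pre-weaning count (5) became 3 with no filter, with upper quartile scaling and with TPM scaling, and ranged from 3 to 5 with one mouse left out: it was 3 without Day 10 replicate 2, Day 15 replicate 1 or 3, Day 20 replicate 1, Day 25 replicate 2, Day 30 replicate 1 or Day 60 replicate 1. The calls lost were Alas2 and Fech; the cause was not tested. Uncalled pre-weaning values changed sign in 2 genes, Urod to 0.0062 without Day 10 replicate 1 (range -0.098 to 0.0062 with one mouse left out) and Ppox to -0.058 with upper quartile scaling. Replicate numbers mark different animals, so they do not pair the samples. Same-numbered mice deviated together with r over 0.1 in 104 of 198 pairs (median 0.13, lowest -0.68). The GC trend of the libraries partly followed the replicate number. It was negative for replicate 1 at every age but Day 30 (r = 0.21). For replicate 3 it was positive at every age but Day 5 (-0.34) and Day 25 (-0.081). Whether the number marks a batch is not given. With the replicate number as a block, the counts were 56 against Day 60, 9 perinatal, 5 pre-weaning and 38 for the steps. FPKM without counts gives no interval for Ppox and Uros, which were near 3 FPKM after weaning.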
